A study of Mus musculus with 8 samples.

Results

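The genes of the proteasome, the protease that degrades ubiquitin-tagged proteins, were followed in the striatum of 8 adult male mice, 4 wildtype and 4 labelled heterozygous for a gene trap in Brd2 (Brd2+/-). Members were the non-control array features whose gene name is Psma, Psmb, Psmc, Psmd, Psme, Psmf or Psmg followed by a number. This rule uses no measured value, but the members were chosen with earlier results of these data known. This gave 62 of 39429 probes, for 49 of the 24324 gene symbols named on the array. Of these symbols, Psmc3ip fits the letters but names a meiotic recombination cofactor that is no part of the proteasome, and leaving it out of the counts gives 61 probes of 48 genes. Both groups were males from matings of heterozygous females with heterozygous males at generation 7 of backcrossing to C57Bl/6J, and no agent was given. The trap is inherited and sits in every tissue, so striatal values cannot be tied to a loss of Brd2 in the striatum alone. Each of the 4 arrays, which lay on 1 slide, held a Cy3-labelled and a Cy5-labelled mouse of the same genotype, so each genotype was read on 2 arrays.

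The proteasome is a barrel with caps. The barrel, or core particle, is built from rings of alpha subunits (Psma), which form the gate, and rings of beta subunits (Psmb), some of which carry the cutting sites. The cap, or regulatory particle, contains a ring of ATPases (Psmc) that unfold substrates and pull them into the barrel, and non-ATPase subunits (Psmd) that bind and remove ubiquitin. Psmb8, Psmb9 and Psmb10 replace the standard catalytic beta subunits after interferon signalling and form the immunoproteasome, which favours peptides for antigen presentation. Psme genes encode alternative activators, Psmf1 an inhibitor, and Psmg1 to Psmg4 with Psmd5, Psmd9 and Psmd10 encode chaperones that assemble the particle and do not stay in it. In neurons the proteasome turns over synaptic proteins, and standard subunits are expressed in nearly all cells.

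The sequences that each probe reads set what a value stands for, so 4 probes that the results turn on are shown first, 5′ to 3′, with the positions given by the array files on mm9. The Psmb2 probe lies at chr4:126361456-126364299 on the plus strand and its 60 bases are spread over a longer stretch of genome. The Psmb9 probe lies at chr17:34319174-34319233 on the minus strand. Psmb5, the standard chymotrypsin-like subunit, and Psmb8, its immunoproteasome substitute, are paralogues, and their probes at chr14:55233161-55233220 (minus strand) and chr17:34337771-34337830 (plus strand) read related stretches. Capitals in those 2 sequences mark the bases that are the same when they are laid side by side without gaps, which was 31 of 50 aligned bases (62.0%).
Psmb2: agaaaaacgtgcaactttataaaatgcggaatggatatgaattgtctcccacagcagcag
Psmb5: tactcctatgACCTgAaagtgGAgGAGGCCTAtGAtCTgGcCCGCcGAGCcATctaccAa
Psmb8: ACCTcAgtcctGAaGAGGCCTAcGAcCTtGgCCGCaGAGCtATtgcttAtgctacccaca
Psmb9: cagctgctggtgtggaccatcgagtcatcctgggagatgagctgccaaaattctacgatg

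Per mouse, 16398 to 24867 probes exceeded background by the scanner software's test, the median spot was 3.75 to 10.5 times its background, and no spot was saturated. Mice that shared an array correlated at 0.986 to 0.989 over all probes tested and mice on different arrays at 0.925 to 0.959, so the array enters the fit as a random block, with a fitted correlation of 0.81. Brd2 itself did not check the genotype labels. Of its 2 probes, 1 read 7.39, 7.31, 6.90 and 6.90 in wildtype replicates 1 to 4 and 7.75, 8.07, 8.05 and 8.17 in heterozygous replicates 1 to 4 on the normalized log2 scale, higher in the mice labelled heterozygous (limma adjusted p = 0.502), and the other overlapped between groups (difference 0.29, limma adjusted p = 0.932). The place of the trap relative to these probes is unknown here. A free-text label names the left atrium of the heart and the tissue field the striatum: 16 of 19 probes of striatal projection neuron markers were well above background in all 8 samples, against 1 of 6 probes of atrial markers. The summed linear signal of the cortical neuron markers was 7294 in wildtype replicate 1 and 686 to 1678 in the other 7 mice, and that of the blood markers was 246797 in wildtype replicate 4 and 35028 to 115137 in the others. The sum of the striatal projection neuron markers was 105390 to 221751 in wildtype mice, lowest in replicate 4, and 232550 to 314304 in heterozygous mice, without overlap. Of its 10 tested probes, 8 read higher, with a median of 0.40, and 0 had an unadjusted p under 0.05 (0%, against 7.98% of all probes). A linear sum rests mostly on bright probes. The brightest, of Ppp1r1b, overlapped between groups (0.47 ± 0.65), and the next, of Penk, did not (0.86 ± 0.71). The part of these markers in the results that follow was not tested.

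Proteasome genes were among the well-detected transcripts of these samples. Of the 61 probes, 55 stood well above background in all 8 samples, and these covered 46 of the 48 genes. The 2 genes that did not pass the filter (well above background in at least 4 of 8 samples) were Psma8, a testis subunit, at 0 of 8 samples, and Psmb11, the beta subunit of the thymus, at 2 of 8, both wildtype on the array of replicates 3 and 4. A second probe each of Psmb9 and Psme2 also failed the filter, at 0 and 2 of 8 samples. No member passed through the samples of 1 genotype alone. In these bulk samples, a change in the number of cells of a type and a change in RNA per cell cannot be told apart.

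No proteasome probe differed between genotypes after adjustment over all probes. With limma, 0 of 18399 probes passed an adjusted p of 0.05 (0% called), and 1468 of them (7.98%) had an unadjusted p under 0.05. Among the 37 member probes (32 genes) tested, 6 (16.2%) had an unadjusted p under 0.05, of which 5 read higher in the heterozygous group and 1 lower (3.89% and 4.09% of all probes). Psmb2, Psmd5, the A_55_P1985758 probe of Psmd9, Psmb9 and Psmd4 were the higher ones and Psmg4 the lower one, and the lowest adjusted p among members was 0.452. The 2 groups did not overlap for 14 member probes (37.8%), 9 higher and 5 lower, against 16.9% of all probes tested (8.01% higher and 8.9% lower). The genotype difference was larger than both differences between the 2 arrays of a genotype for 14 member probes (37.8%), against 22.6% of all probes. The median difference over member probes was -0.02 on the log2 scale, and over all probes it was also -0.02, with 16 member probes higher and 21 lower (52% of all probes lower). The members showed no common direction.

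A further 20 of the 58 probes that passed the filter (a total that includes Psmc3ip) were not in the fit because the scanner software had flagged spots of theirs as outliers (34.5%, against 17.4% of all probes). Bright probes were flagged more often: 51.1% of the brightest 20% of all probes and 56.2% of the 32 member probes in that set were lost, against 9.05% and 7.69% of the rest. With flagged spots kept, all 57 proteasome probes that passed the filter had a value in every mouse, 27 read higher and 30 lower, and 12 had an unadjusted p under 0.05 (21.1%, against 8.8% of 22288 probes). Of these, 8 read higher and 4 lower, where 4.61% of all probes were called higher and 4.19% lower. In that fit too, 0 probes of all passed adjustment (0% called, lowest limma adjusted p among members 0.348). Each of the 20 is given below as read from flagged spots, some by the difference alone. Those given by mouse were picked with the values in view.

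**Figure D1:**
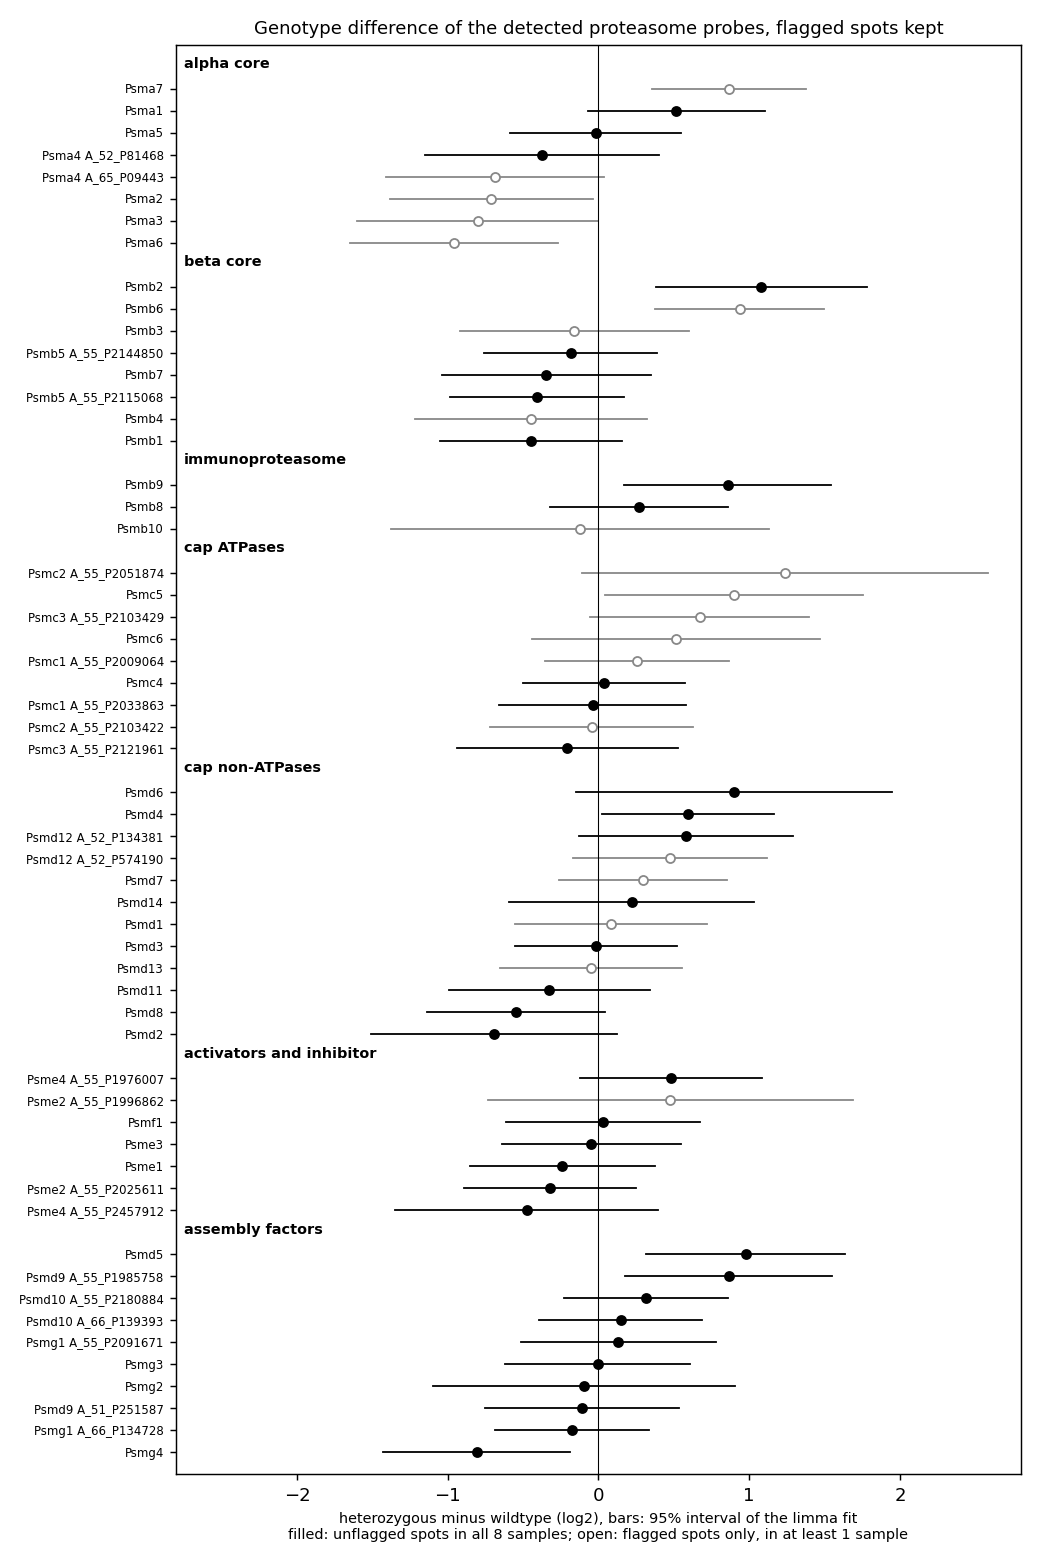
Genotype difference (x axis, log2, heterozygous minus wildtype, with the 95% interval of the limma fit) for the 57 detected proteasome probes, grouped by role and ordered within each group. Filled points had unflagged spots in all 8 samples and open points did not; most intervals cross 0, and the alpha and beta core hold members on both sides, from Psmb2 at 1.08 to Psma6 at -0.96.

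The alpha subunits, which form the outer rings and the gate, split by gene. Of 3 probes in the fit, 1 read higher and 2 lower, with a median difference of -0.02 and none under an unadjusted p of 0.05. Psma1 gave 11.95, 11.62, 11.47 and 11.34 in the wildtype mice and 12.07, 11.98, 12.24 and 12.15 in the heterozygous mice. The groups did not overlap, though the lowest heterozygous mouse was only just above the highest wildtype mouse, and the difference was 0.52 ± 0.25 (SE, n = 4 per group, limma adjusted p = 0.677). Psma5 overlapped between groups, at -0.02 ± 0.24 (95% interval -0.57 to 0.53).

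Psma4 showed how much a value could rest on 1 array. Its A_52_P81468 probe gave 11.61, 11.50, 11.53 and 11.44 in the wildtype mice, 11.61 and 11.72 in heterozygous replicates 1 and 2, and 10.58 and 10.69 in replicates 3 and 4. Only the pair on the last array was low, and the difference of -0.37 became 0.14 without that array. The other Psma4 probe, read with flagged spots, was lowest on the other heterozygous array, at 11.33 and 11.28 in replicates 1 and 2 against 12.20 to 12.61 in the other 6 mice.

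The largest alpha-ring differences came from probes with flagged spots, and they went in both directions. Psma7 gave 12.72, 12.57, 12.63 and 12.46 in wildtype mice and 13.70, 13.50, 13.41 and 13.24 in heterozygous mice. All 4 heterozygous mice were above all 4 wildtype mice, the spots of wildtype replicates 1 and 2 and heterozygous replicates 3 and 4 were flagged, and the difference was 0.87 ± 0.23 (limma adjusted p = 0.348). Psma6 gave 12.41, 12.28, 12.17 and 12.04 against 11.71, 11.60, 10.84 and 10.93, with the spots of heterozygous replicates 1 and 2 flagged. All heterozygous mice were lower, the second pair by more than the first, and the difference was -0.96 ± 0.30 (limma adjusted p = 0.418). Psma2 (-0.71 ± 0.30) and Psma3 (-0.80 ± 0.35) also read lower at an unadjusted p under 0.05, but all heterozygous spots of Psma2 and all spots of Psma3 except that of wildtype replicate 3 were flagged. Over the 8 alpha probes with flagged spots kept, 2 read higher and 6 lower, with a median of -0.53. The Psma6 probe, the lowest of the core, lies at chr12:56511127-56511186 on mm9, plus strand.
Psma6: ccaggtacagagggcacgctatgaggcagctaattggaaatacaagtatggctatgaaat

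Of the 5 beta core probes in the fit, only that of Psmb2 read higher in the heterozygous group. Psmb2, a non-catalytic subunit of the beta ring, gave 9.10, 9.08, 8.74 and 8.44 in the wildtype mice and 10.19, 9.97, 9.70 and 9.82 in the heterozygous mice. Every heterozygous mouse was above every wildtype mouse on both arrays of each genotype, and the gap between groups exceeded the array gaps of 0.50 and 0.32. The difference was 1.08 ± 0.30, or 2.12-fold (95% interval 0.40 to 1.76 on the log2 scale, limma adjusted p = 0.452). A two-sided exact permutation test over the 4 and 4 mice gave p = 0.0286 and over whole arrays p = 0.333, the smallest values these designs can give. Both values follow from the lack of overlap alone, so they hold for every probe below whose groups do not overlap. They hold equally for the 16.9% of all probes tested that do not overlap, and so add nothing to it. The test over mice also takes mice on 1 array as independent. Over the alternatives, which include leaving out mice or arrays, the difference stayed above 0, from 0.60 to 1.33. The 0.60 came from the scanner software's own processed signals, and the 1.33 from leaving out the array of wildtype replicates 1 and 2.

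The other 4 beta core probes in the fit read lower, none at an unadjusted p under 0.05. Psmb1, also non-catalytic, gave 11.82, 11.77, 12.37 and 12.23 against 11.72, 11.67, 11.46 and 11.56, a difference of -0.45 ± 0.26 without overlap, which shrank to -0.02 with the scanner software's processed signals. Psmb5, which carries the chymotrypsin-like site, gave 13.73, 13.64, 13.59 and 13.56 against 13.48, 13.14, 13.18 and 13.10 with the probe shown above. These groups also did not overlap, the difference was -0.41 ± 0.25 (limma adjusted p = 0.765), and the second Psmb5 probe gave -0.18 ± 0.25. Psmb7, which carries the trypsin-like site, was within 13.26 to 13.41 in 6 mice and at 12.45 and 12.55 in heterozygous replicates 3 and 4. Its difference of -0.34 became 0.10 without that array.

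Psmb6, the caspase-like catalytic subunit, had the clearest split of the flagged probes. It gave 12.86, 12.97, 13.02 and 12.98 in wildtype mice and 13.85, 13.69, 14.01 and 14.03 in heterozygous mice, with the spots of wildtype replicates 1 and 2 flagged. The wildtype mice lay close together, all heterozygous mice were clearly above them, and the difference was 0.94 ± 0.25, or 1.91-fold (limma adjusted p = 0.350). The structural subunits Psmb3 (-0.16 ± 0.34) and Psmb4 (-0.45 ± 0.34) overlapped between groups. Over all 16 core probes, alpha and beta together, 4 read higher (Psmb2, Psmb6, Psma7 and Psma1) and 12 lower, with a median of -0.36, against -0.26 for the 8 core probes without flagged spots. The core median was -0.04 with the scanner software's processed signals and -0.0027 without the array of heterozygous replicates 3 and 4.

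**Figure D2:**
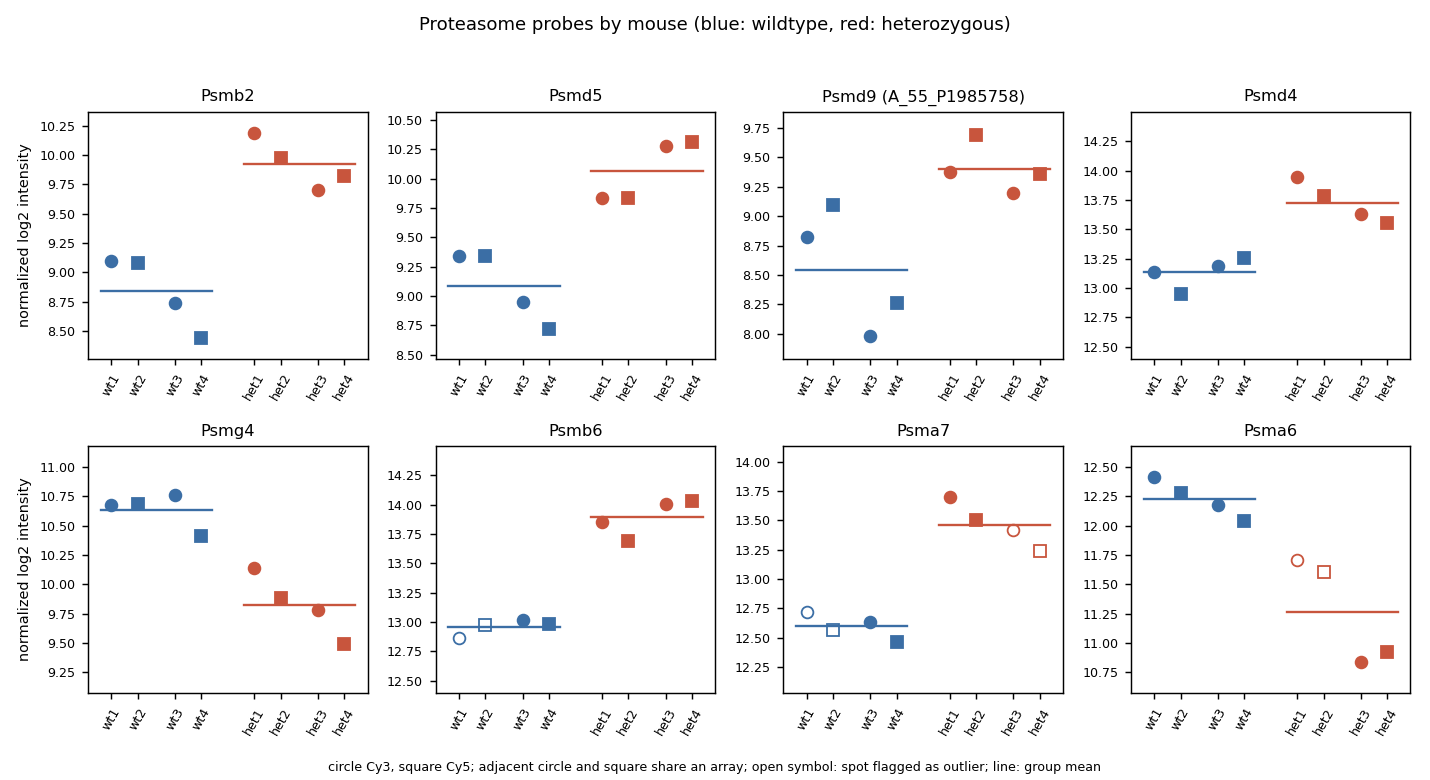
Normalized log2 intensity (y axis) of 8 proteasome probes in each of the 8 mice (x axis), with wildtype in blue, heterozygous in red and group means as lines; neighbouring circle (Cy3) and square (Cy5) share an array, and open symbols are flagged spots. All 8 panels show groups that do not overlap, from Psmb2 (higher by 1.08) to Psma6 (-0.96), and the step between the 2 arrays of a genotype is visible in Psma6, Psmd9 and Psmd5.

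The immunoproteasome subunits Psmb9 and Psmb8 read higher in every heterozygous mouse, and Psmb10 did not. Psmb9 gave 7.24, 7.57, 7.12 and 7.43 in wildtype mice and 8.36, 8.33, 8.09 and 8.01 in heterozygous mice. The lowest heterozygous value lay well above the highest wildtype value, and the difference was 0.86 ± 0.29, or 1.81-fold (95% interval 0.19 to 1.52, limma adjusted p = 0.520). Psmb8 gave 8.57, 8.83, 8.77 and 8.83 against 9.01, 8.94, 9.10 and 9.02, a smaller step without overlap of 0.27 ± 0.25 (limma adjusted p = 0.891). Psmb10, whose spots in heterozygous replicates 3 and 4 were flagged, gave 11.44 and 11.05 in wildtype replicates 1 and 2, 12.44 and 12.85 in replicates 3 and 4, and 12.24, 11.80, 11.55 and 11.70 in the heterozygous mice. The wildtype arrays lay 1.40 apart, on either side of the heterozygous values, and the difference was -0.12 ± 0.55. Both differences that were above 0 varied with the processing. Psmb9 gave 0.26 after a smooth surface over the array was subtracted from each channel, 0.75 with the scanner software's processed signals and 1.08 with the deposited values. Psmb8 gave 0.15, -0.12 and 0.31 in the same order.

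Psmb9 and Psmb8 lie beside the trapped gene. Their probes are 63.1 kb and 81.7 kb from the nearest Brd2 probe on chromosome 17 (mm9), so every mouse with the trap also carried the stretch of chromosome around it, and an effect of that stretch and one of Brd2 dose cannot be told apart in this design. Of 47 tested probes within 500 kb of the Brd2 probes, a window chosen with the data in view, 23 read higher and 24 lower, the median was -0.02, and 4 (8.51%, against 7.98% of all probes) had an unadjusted p under 0.05, Psmb9 among them. Psmb1, the only other member on that chromosome, read lower.

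Genes that usually accompany Psmb8 and Psmb9 after interferon-gamma lay on both sides of 0. Of 11 tested probes on that list, 7 read higher and 4 lower, with a median of 0.06. The 1 at an unadjusted p under 0.05 (9.09%, against 7.98% of all probes) was Irgm1, an interferon-induced GTPase, at 0.90 ± 0.34 (limma adjusted p = 0.561). The second Irgm1 probe overlapped between groups, at 0.27 ± 0.29. Irf1 (0.40 ± 0.33) and Ifi47 (-0.30 ± 0.25) went opposite ways, each without overlap between groups. Tap1, the peptide transporter gene that shares its promoter region with Psmb9, was well above background in 1 of 8 samples. Of the microglial markers, 13 of 15 probes were detected in every mouse, 8 of 12 tested probes read higher, and the median difference was 0.10. The 1 of these at an unadjusted p under 0.05 (8.33%, against 7.98% of all probes) was C1qa, at 0.58 ± 0.23 without overlap (limma adjusted p = 0.582). The microglial sum was 73106 to 80036 in wildtype and 78971 to 88114 in heterozygous mice. Most of that sum came from 1 Itgam probe at 15.52 to 15.83, whereas the other tested Itgam probe read 7.70 to 8.49. The sum is therefore a poor measure of microglia. The part of microglia in the Psmb9 difference was not tested. Of 8 T and B cell marker probes, 1 was detected in every mouse and 3 in no mouse, and the sum was 1189 to 1657 in wildtype and 1097 to 1296 in heterozygous mice.

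**Figure D3:**
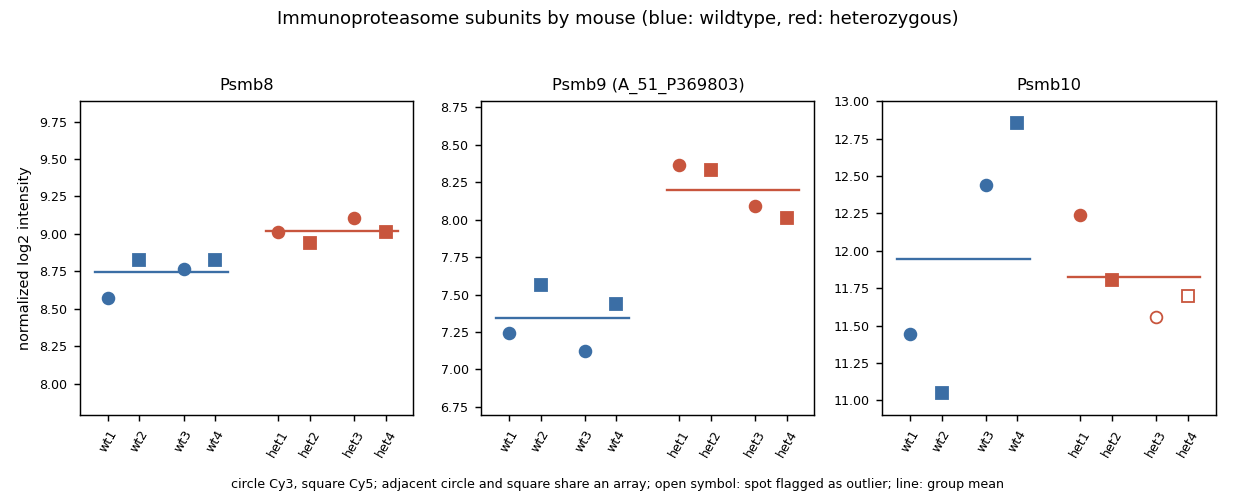
Normalized log2 intensity (y axis) of Psmb8, Psmb9 and Psmb10 in each mouse (x axis), wildtype in blue and heterozygous in red, with group means as lines and open symbols for flagged spots. Psmb9 (difference 0.86) and Psmb8 (0.27) do not overlap between groups, whereas the 2 wildtype arrays of Psmb10 lie 1.40 apart.

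The ATPases of the cap showed small differences in the fit. The 3 probes without flagged spots gave differences of -0.21 (Psmc3), -0.04 (Psmc1) and 0.04 (Psmc4), with no unadjusted p under 0.05. Read with flagged spots, the other Psmc3 probe went the opposite way, at 0.67 ± 0.32 without overlap between groups. The other Psmc1 probe overlapped, at 0.26 ± 0.27. Psmc4 was among the steadiest members, between 11.87 and 12.06 in all 8 mice, with a 95% interval of -0.48 to 0.56. Psmc5 gave 13.16 and 13.23 in wildtype replicates 1 and 2, 11.86 and 12.03 in wildtype replicates 3 and 4, and 13.31, 13.33, 13.51 and 13.72 in the heterozygous mice, with the spot of wildtype replicate 1 flagged. The groups did not overlap, but most of the difference of 0.90 ± 0.38 came from the second wildtype array. The same array was low for Psmc6, at 9.92 and 9.83 against 10.93 and 11.16 on the other wildtype array. The Psmc6 probe gave 11.46, 11.42, 10.52 and 10.51 in the heterozygous mice, with the spot of wildtype replicate 3 flagged. Its groups overlapped, and the difference was 0.52 ± 0.42.

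The non-ATPase cap subunits went both ways, with 4 of 8 probes higher. Psmd4, a receptor for ubiquitin chains, gave 13.13, 12.95, 13.19 and 13.26 in wildtype mice and 13.94, 13.78, 13.63 and 13.56 in heterozygous mice. The groups did not overlap and the difference was 0.59 ± 0.24 (limma adjusted p = 0.606), but it was 0.29 after the surface over the array was subtracted and 0.04 with the scanner software's processed signals. Psmd12, a scaffold subunit of the lid, gave 8.55, 8.08, 8.10 and 8.09 against 8.99, 8.88, 8.62 and 8.66 with its A_52_P134381 probe, and the second probe, read with flagged spots, was higher too (0.58 ± 0.31 and 0.48 ± 0.29). Psmd6, another lid subunit, gave 11.55, 11.38, 10.77 and 10.60 in wildtype mice, but 12.81 and 12.65 in heterozygous replicates 1 and 2 and 11.20 and 11.24 in replicates 3 and 4. Its groups overlapped, and the 2 heterozygous arrays lay 1.51 apart, more than the genotype difference of 0.90.

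Psmd8 and Psmd2 read lower. Psmd8, a lid subunit, gave 12.18, 12.28, 12.01 and 12.10 against 11.30, 11.35, 11.76 and 11.97, without overlap though heterozygous replicate 4 came close to the lowest wildtype mouse (-0.55 ± 0.26, limma adjusted p = 0.653). The difference was -0.22 with the scanner software's processed signals and -0.17 after the surface was subtracted. Psmd2, a large scaffold of the base, gave 13.61, 13.27, 13.91 and 13.90 against 12.53, 12.50, 13.44 and 13.45, so that only the first heterozygous array was clearly apart (-0.69 ± 0.35, with -0.28 and -0.35 from the processed signals and after the surface was subtracted). Psmd3 (-0.02), Psmd11 (-0.33) and Psmd14, the lid's ubiquitin-removing enzyme (0.22), overlapped between groups. So did Psmd1 (0.08), Psmd7 (0.29) and Psmd13 (-0.05), read with flagged spots. The median of the 11 cap probes was -0.02, and with flagged spots kept it was 0.22 over 21 probes, 13 of them higher.

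The activators and the inhibitor showed no probe under an unadjusted p of 0.05. Psme1 and Psme2 form the interferon-inducible activator ring, and both read lower without flagged spots, at -0.26 ± 0.28 and -0.32 ± 0.24. Psme2 gave 10.93, 10.99, 10.74 and 10.67 in wildtype mice and 10.63, 10.41, 10.59 and 10.42 in heterozygous mice with its A_55_P2025611 probe, a narrow gap without overlap. The A_55_P1996862 probe of Psme2 gave 12.67 and 12.57 in heterozygous replicates 1 and 2 and 10.69 to 11.70 in the other 6 mice, for a difference of 0.48 ± 0.54 in the opposite direction. Psme4, an ATP-independent activator of the nucleus, also had probes of opposite sign, at 0.48 ± 0.26 and -0.48 ± 0.38, the latter well above background in 6 of 8 samples. Psmf1, the inhibitor, differed by 0.03 ± 0.28.

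Psme3, the nuclear activator, split by dye. Its probe gave 9.18, 9.09, 8.91 and 9.43 in the Cy3-labelled mice and 10.06, 9.90, 9.63 and 10.08 in the Cy5-labelled mice. Cy5 exceeded Cy3 by 0.65 to 0.88 on each of the 4 arrays, the genotype difference with dye as a covariate was -0.05 ± 0.26, and this was the only one of 58 member probes with Cy5 at least 0.50 above Cy3 on every array (20 of all 22288 probes, 0.0897%). The probe holds an unbroken run of 12 alternating T and G bases, and 41 of its 60 bases are T or G.

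Of 10 assembly factor probes, 3 (30%, against 7.98% of all probes) had an unadjusted p under 0.05, 2 higher and 1 lower. Psmd5, a chaperone that holds cap ATPases before the cap closes, gave 9.34, 9.34, 8.95 and 8.72 in wildtype mice and 9.83, 9.84, 10.28 and 10.31 in heterozygous mice. Each heterozygous array was above each wildtype array, and the difference was 0.98 ± 0.29, or 1.97-fold (95% interval 0.33 to 1.62, limma adjusted p = 0.481). It ranged from 0.69 after the surface was subtracted to 1.23 without the array of wildtype replicates 1 and 2. Psmg4, a chaperone of the core's alpha ring, gave 10.67, 10.68, 10.76 and 10.41 against 10.13, 9.88, 9.78 and 9.49. All heterozygous mice were lower, by -0.81 ± 0.27, with wildtype 1.75-fold above heterozygous (limma adjusted p = 0.507), and the difference was -0.39 after the surface was subtracted. Psmg1 (0.13 and -0.17 from its 2 probes) and Psmg3 (-0.003) were near 0.

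Psmd9, a further chaperone of the cap ATPases, gave contrary values from its probes. The A_55_P1985758 probe gave 8.83, 9.10, 7.98 and 8.26 in wildtype mice and 9.38, 9.69, 9.20 and 9.36 in heterozygous mice, without overlap, at 0.86 ± 0.30 (limma adjusted p = 0.524). It shrank under other processing, to 0.47 with the scanner software's processed signals and 0.33 after the surface was subtracted. The A_51_P251587 probe overlapped between groups, at -0.11 ± 0.28. Psmg2, a core chaperone, had the widest split between arrays of the members tested: 9.73 and 9.82 in heterozygous replicates 1 and 2 and 11.25 and 11.36 in replicates 3 and 4, on either side of the wildtype range of 10.40 to 10.84. Psmd10, which binds a cap ATPase and is also called gankyrin, read higher with both probes (0.32 ± 0.23 and 0.15 ± 0.23). The Psmd5 and first Psmd9 probes lie at chr2:34708108-34708167 (minus strand) and chr5:123691881-123691940 (plus strand) on mm9.
Psmd5: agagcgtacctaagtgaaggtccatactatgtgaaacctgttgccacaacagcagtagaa
Psmd9: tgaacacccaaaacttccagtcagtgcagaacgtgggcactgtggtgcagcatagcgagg

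Members read more than once gave a measure of error that the fit across mice does not hold. Psme1 was the only member whose probe was spotted repeatedly, at 10 places on each array. The SD over these spots within a mouse was 0.18 to 0.46, and the heterozygous minus wildtype difference of a spot ran from -0.96 to 0.48, with 7 of the 10 below 0. The spot at row 361 gave -0.96, and those at rows 21, 478 and 512 gave 0.25, 0.48 and 0.13. Flagged spots were left out, so these differences rest on different sets of mice. Rows 21 and 478 lacked wildtype replicates 1 and 2, and row 361 lacked heterozygous replicate 1. Spots with a value in every mouse ran from -0.50 (row 377) to 0.13 (row 512). Wildtype values were highest at rows 291 to 377 and lowest near the ends of the array, a pattern less marked in the heterozygous mice. Spots of 1 probe thus gave genotype differences of both signs.

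The same held for probes of 1 gene. Of 11 genes with several detected probes, 7 had probes of opposite sign with flagged spots kept, and among the 5 with several probes in the fit, 3 did (Psmd9, Psme4 and Psmg1). The sharpest case was Psmc2, an ATPase of the cap, whose 2 probes share 50 of their 60 bases. The A_55_P2103422 probe gave 13.10, 12.60, 12.62 and 12.45 in wildtype mice and 12.90, 12.65, 12.53 and 12.50 in heterozygous mice. The A_55_P2051874 probe was similar in wildtype replicates 1 and 2, at 13.00 and 12.71, but read 10.62 and 10.64 in wildtype replicates 3 and 4, where 1 spot was flagged. Their genotype differences were -0.04 ± 0.30 and 1.24 ± 0.60.

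**Figure D4:**
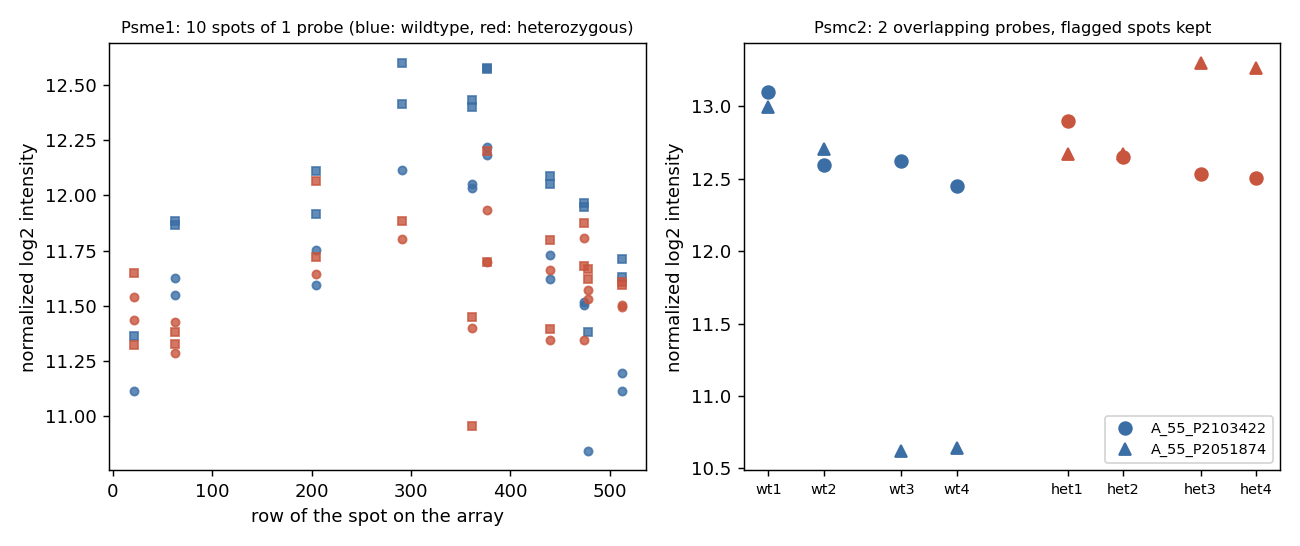
Left, normalized log2 intensity (y axis) of the 10 spots of the Psme1 probe against their row on the array (x axis), in each mouse. Right, the same measure (y axis) for the 2 Psmc2 probes in each mouse (x axis), which part on the array of wildtype replicates 3 and 4 (10.62 and 10.64 against 12.62 and 12.45); blue is wildtype, red heterozygous, and in the left panel circles are Cy3 and squares Cy5.

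The size of the differences varied with the processing. Over the 28 member probes given in full from the fit, the median size of the difference was 0.43, and it was 0.24 with the scanner software's processed signals and 0.27 after the smooth surface was subtracted. None of the 28 had an unadjusted p under 0.05 with the processed signals, and after the surface was subtracted 2 did, Psmb2 (0.72) and Psmd5 (0.69). The share of all probes under that cutoff in these 2 fits is not given here. With the processed signals Psma1 gave 0.31, Psma4 -0.08, Psmb5 -0.18 and Psmb7 -0.16. After the surface was subtracted Psmd10 gave 0.13, Psme2 -0.17, and the 2 Psme4 probes 0.23 and -0.14. Of the 28, 18 kept their direction under all 26 alternatives in which they were tested, and the 6 with an unadjusted p under 0.05 were among those. Several alternatives change only the filter or the error term and leave the difference as it is, so they could not turn a sign. The groups of those 6 probes did not overlap, so they also could not turn with 1 dye alone or with an array left out. Their kept direction is therefore little measure of steadiness.

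**Figure D5:**
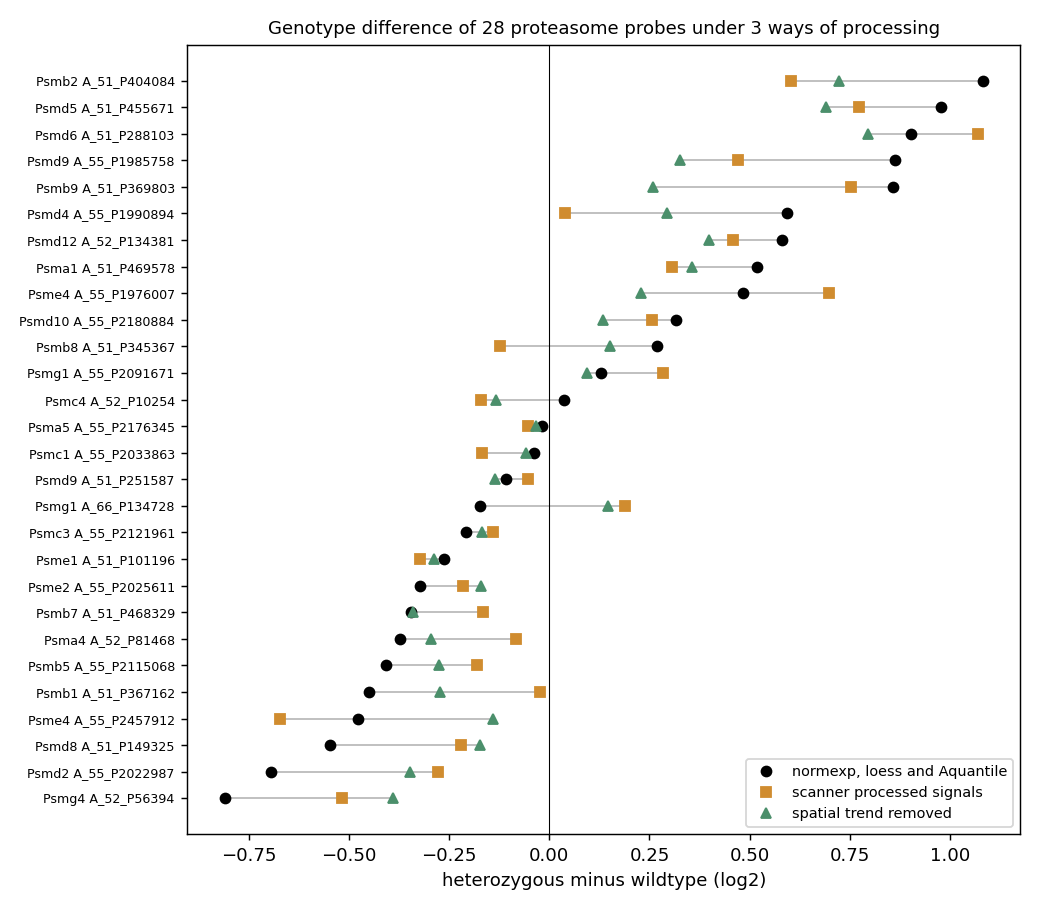
Heterozygous minus wildtype difference (x axis, log2) of the 28 member probes given in full, under the processing used for the text (circles), the scanner software's processed signals (squares) and subtraction of a smooth surface over the array (triangles). Most symbols draw toward 0 under the alternatives, Psmd6, Psmb2 and Psmd5 are highest after the surface is subtracted, and Psmb8 falls to -0.12 with the processed signals.

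Genes that feed or serve the proteasome were counted beside it. Of 39 tested probes (30 genes) from a list of ubiquitin genes, shuttle factors, cap-associated deubiquitinases and regulators of proteasome gene expression, 22 read higher and 17 lower, with a median of 0.05. An unadjusted p under 0.05 was found for 3 (7.69%, against 7.98% of all probes), all lower. Ufd1, a cofactor of the Vcp unfoldase, gave 11.25, 11.36, 11.49 and 11.47 against 10.12, 9.94, 10.40 and 10.48 (-1.16 ± 0.26, limma adjusted p = 0.435), with its second probe at -0.13 ± 0.36. Usp14, a deubiquitinase that sits on the cap, gave 9.81, 9.42, 9.17 and 8.92 against 8.65, 8.38, 8.37 and 8.37 (-0.89 ± 0.29, limma adjusted p = 0.507), and -0.47 after the surface was subtracted. Its second probe, with a flagged spot in wildtype replicate 1, gave 11.76, 11.89 and 11.73 in wildtype replicates 2 to 4 and 11.94, 11.79, 11.59 and 11.63 in heterozygous mice, so the groups overlapped there. Rad23b, which shuttles ubiquitinated proteins to the cap, gave 10.17, 9.90, 10.21 and 10.25 against 9.43, 9.38, 9.46 and 9.55 (-0.68 ± 0.26, limma adjusted p = 0.561), with its second probe at -0.18 ± 0.37. On the first-named probe of each of these 3 genes the groups did not overlap. Uchl1, an abundant neuronal ubiquitin hydrolase, and Ddi2, the protease that activates Nfe2l1, read higher at 0.75 ± 0.34 and 0.48 ± 0.24 (the second Ddi2 probe gave 0.08 ± 0.25), and the shuttle factor Ubqln2 lower at -0.59 ± 0.33, also without overlap. With the processed signals and after the surface was subtracted, Uchl1 gave 0.43 and 0.47, Ddi2 0.06 and 0.10, and Ubqln2 -0.30 and -0.37. Nfe2l1, the factor that drives proteasome genes when proteolysis falls short, differed by -0.10 ± 0.23 and overlapped between groups.

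Promoter sequence was compared through 43 RefSeq promoters (GRCm38.p6, the 250 bases before the start) that matched 40 of the 48 genes. The core of the antioxidant response element that Nfe2l1 binds, TGACNNNGC on either strand, was in 5 of them (11.6%) and in 10.2% of 32851 promoters. CCAAT was in 14 (32.6%, against 33.8% of all). The 8 probes of the 5 genes with TGACNNNGC (Psmb5, Psmb6, Psmc6, Psmd9 and Psmd12) had a median difference of 0.50 with flagged spots kept, 5 higher and 3 lower, and the 41 probes of matched genes without it a median of -0.02. The 16 probes of genes with CCAAT had a median of 0.18, 9 higher and 7 lower, and the 33 without it a median of -0.02. A match is a run of letters and was not tested as a binding site.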

How the data were processed

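Total RNA of each mouse was amplified and labelled with Cy3 or Cy5, per the labels' protocols. The scanner files hold spot and background intensity of each channel, read with Agilent Feature Extraction 11.0.1.1 per the file headers, together with the software's processed intensity. The deposited value table gives a linear ratio: a spot's median signal minus its median background, divided by the column median. This was found by comparison with the scanner values (100% equal within rounding), since no label states it. Values are not centred across samples, and no source names a further step.

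From the deposited intensity, normexp (offset 50) removed background, loess was run on each array and Aquantile across them (limma 3.58.1, R 4.3.3). Each mouse's value is its own channel on the log2 scale. Control spots and outlier-flagged spots were left out, spots of a probe were averaged, and probes well above background in at least 4 of 8 samples and valued in all 8 were tested (18399 of 22288 that passed). Genotypes were compared with lmFit and eBayes, dye as a covariate and array as a random block, with Benjamini-Hochberg adjustment over all probes. The ± values of differences are standard errors of this fit. The mice are separate samples but share arrays in pairs, so p-values reflect both the spread of mice and that of 2 arrays per genotype.

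The members and lists were chosen with earlier results of these data known. Values are given in full for the 4 probes with the lowest unadjusted p in each class, every Psmb8, Psmb9 and Psmb10 probe, genes whose probes disagree in sign, members without overlap between groups and 6 probes of the wider list. The probes with flagged spots, Psmf1, Psme3, Psmg2, Psmg3, Psmd3, Psmd11 and Psmd14, Nfe2l1, Tap1, Irgm1, Irf1 and Ifi47 fall outside that rule and were chosen with values in view. Coordinates are those of the files (mm9). In simulated data for this comparison on 18399 probes, limma recovered 0%, 16%, 56% and 92% of 50 probes each changed 1.5-, 2-, 4- and 8-fold at an adjusted p of 0.05.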

Additional observations from a re-analysis of the deposited data

Results flagged for a closer look

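Psmd12 (probe A_52_P134381) had 1 wildtype mouse far from the others: replicate 1 read 8.5528, against 8.0755 to 8.1019 in the other 3. Usp14 (probe A_65_P11632) had 1 heterozygous mouse apart: replicate 1 read 8.6538, against 8.3663 to 8.3803. These were 2 of 68 groups examined with Dixon's 95% critical value for 4 samples, and chance flags about 1 group in 20.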

How the results depend on the processing

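Alternatives are against 0 probes called after adjustment, 6 member probes at an unadjusted p under 0.05, and medians of -0.017 (all members), -0.2647 (core), -0.0166 (cap) and 0.5634 (immunoproteasome). The causes of the shifts were not tested. Except with flagged spots kept, where it is given above, the member counts below lack the share of all probes in the same fit. Those counts are not read as results about the members. The scanner software's processed signals gave 0 member probes and medians of -0.0374 (core), -0.1396 (cap) and 0.315 (immunoproteasome), and turned Psmb8 (-0.1228), Psmc4 (-0.1695) and the A_66_P134728 probe of Psmg1 (0.1884). Loess within arrays alone gave 0 member probes and a median over all members of -0.0811. Without a filter on dim probes, 11 member probes passed and the immunoproteasome median was 0.2688; with flagged spots kept, 12 passed and the cap and immunoproteasome medians were 0.2212 and 0.2688, both over more probes. The subtracted surface left 2 member probes and an immunoproteasome median of 0.2056, and turned Psmc4 (-0.1326) and Psmg1 A_66_P134728 (0.1471). The deposited value table called 1 probe of all. Without the array block, which treats mice on 1 array as independent, 529 probes of all were called, among them Psmb2 (limma adjusted p = 0.0360, over alternatives 0.0360 to 1.00), Psmb9 (0.0360, same range) and Psmg4 (0.0433 to 1.00), and 14 member probes had an unadjusted p under 0.05. Cy3 mice alone gave an immunoproteasome median of 0.7172; Cy5 mice alone gave 0.4096, 3 member probes, and -0.0118 for Psmc4.

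Leaving out arrays mattered more than leaving out mice. Without the array of wildtype replicates 1 and 2, 17 probes of all were called, the median over all members was -0.0754, and Psmc4 (-0.02) and Psmg1 A_55_P2091671 (-0.2017) turned. Without that of wildtype replicates 3 and 4, 14 probes were called, the median was 0.0557, and Psma5 (0.076), Psmc1 (0.0124) and Psmc3 (0.1778) turned. Without that of heterozygous replicates 1 and 2, the median was 0.071, and Psma5 (0.1287), Psmd9 A_51_P251587 (0.0924) and Psmg1 A_55_P2091671 (-0.0412) turned. Without that of heterozygous replicates 3 and 4, 5 probes were called, the core median was -0.0027, and Psma4 (0.144) and Psmb7 (0.104) turned. Leaving out each mouse called 0 to 1 probes of all (1 without wildtype replicate 4) and left 5 to 7 member probes; the medians ran from -0.0526 to 0.0139 (all members), -0.2936 to -0.2372 (core), -0.0173 to 0.0234 (cap) and 0.4988 to 0.6288 (immunoproteasome), and Psma5 (-0.0574 to 0.0177), Psmc1 (-0.1018 to 0.0234) and Psmc4 (-0.0059 to 0.0798) changed sign.

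The labels do not say that replicate numbers pair the mice, and 3 of 4 correlations passed 0.1. Deviations of same-numbered mice from their group means correlated at 0.0393, 0.2553, 0.1635 and 0.1246, and 4 of 8 mice correlated best with their own number. Same-numbered mice also carried the same dye, so these values cannot tell a pairing of mice from a shared dye. The fit with the replicate number as a block called 0 probes of all and left 9 member probes at an unadjusted p under 0.05, with the medians as above. With 2 arrays per genotype, simulated 2-fold changes were mostly missed, so a lack of calls does not show equal levels.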
